A study of Homo sapiens with 11 samples.

Results

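The zinc finger genes of human chromosome 19 were followed in A549, an established cell line from a human lung adenocarcinoma, exposed to cigarette smoke condensate (CSC) or to its vehicle DMSO. CSC holds the particles of smoke, collected and dissolved. Members were chosen by name, chromosome and expression level. A gene was a member if its symbol began with ZNF and a digit, its locus lay on chromosome 19, and its FPKM reached 1 in at least 2 of the 11 RNA-seq libraries. FPKM is the number of fragments per kilobase of a transcript, scaled to the mapped total. Of 255 such symbols, 148 passed and 107 failed, and all 148 stood at 1 locus each. The 4 groups were DMSO for 48 hours (2 libraries, replicates 2 and 3), CSC for 48 hours (3 libraries), DMSO for 2 weeks (3 libraries) and CSC for 2 weeks (3 libraries). The labels write the CSC dose as 20 µM, a unit that a mixture does not define. Nothing in them states that the replicates came from separate cultures. The p-values then cover only the spread between the samples at hand, and that spread may be technical. RNA was taken from whole cultures, in which fewer cells of a kind and less RNA per cell cannot be told apart. Values below are listed in replicate order.

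C2H2 zinc finger proteins bind DNA through small folds, each held by a zinc ion between cysteines and histidines. Many on chromosome 19 arose by local duplication and carry a KRAB box, which binds TRIM28. TRIM28 in turn brings SETDB1, which methylates lysine 9 of histone H3, and HP1 proteins to the bound DNA. KRAB zinc finger proteins are best known for silencing transposable elements.

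The members were also searched for the short sequence that joins one finger to the next. Linkers were sought in the 3 forward reading frames of each member's longest GENCODE coding transcript (GRCh37). Of the 146 members with a transcript, 131 held at least 1 linker of the conserved family type. The 18 coding bases were written in 281 different ways over 883 copies. The commonest 3 runs are given, with the bases that they share in capitals. The search itself fixed the amino acids as TGE, K or R, P, and Y or F. Many of these capitals therefore follow from the search and do not measure how alike the members are.
Commonest linker, 57 copies in 32 members: ACTGGAGAgAaaCCcTAt
Next linker, 46 copies in 13 members: ACTGGAGAgAaaCCtTAc
Last of the 3, 37 copies in 15 members: ACTGGAGAaAggCCtTAt
Reads from such repeats can fit more than one gene. The share of a member's 50-base transcript windows that also occurred in another gene had a median of 1.77%, and 37 members were above 10%. In 39 members 0 windows were shared. Exons of 39 members overlapped a coding transcript of another gene. The strand setting is not given in the sources used here, so reads of overlapping genes cannot be told apart.

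The members were weakly expressed. Over the 148, the median of the mean FPKM was 2.50, beside 10.3 for the 720 other tested genes of chromosome 19, 3.55 for 214 tested ZNF genes of other chromosomes and 7.88 for all 12506 tested genes. Together the members held 0.135% to 0.197% of a library's summed FPKM, and 114 of them reached 1 in all 11 libraries. The rule took members by level, so these values describe them and test nothing.

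ZNF146, a protein made almost wholly of fingers, had the highest mean level, 51.6 FPKM, and lay between 44.7 and 61.5 over the 11 libraries. ZNF580 followed at 22.3 (17.1 to 36.0), then ZNF787 at 15.8 (11.4 to 21.7), ZNF460 at 15.1 (13.5 to 22.2) and ZNF579 at 14.2 (10.8 to 20.7). The ranges of the last 3 overlapped each other and that of ZNF580. A KRAB box was found in ZNF460 and in none of the other 4.

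Just inside the threshold were ZNF671, ZNF224 and ZNF233, whose second-highest FPKM was 1.02, 1.03 and 1.07. ZNF583, ZNF616 and ZNF132 lay just outside at 0.995, 0.975 and 0.942. ZNF91 and ZNF93, known for silencing SVA and LINE-1 retrotransposons, were not members, at 0.0546 to 0.299 and 0 to 0.0443 FPKM. ZNF85 (0 to 0.158), ZNF382 (0 to 0.0702) and ZNF44 (0.222 to 0.870) were not members either. Of the 107 that failed, 3 were listed at 0 in all 11 libraries. ZNF233, ZNF256, ZNF333, ZNF470, ZNF542, ZNF671 and ZNF772 passed only through CSC libraries, and 0 passed only through DMSO libraries. Those 7 had to be higher in CSC somewhere. For all members together, the counts above 0 in CSC against DMSO are therefore read with and without them. The other counts below are not given again without them, and so may lean to CSC.

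CYP1B1, an induced target of the aryl hydrocarbon receptor, served to check the labels. It stood at 5.43 to 12.6 FPKM in the 5 DMSO libraries and at 25.99 to 72.1 in the 6 CSC libraries, with no overlap. Keratin genes of the A549 epithelium, KRT7, KRT8 and KRT18, lay at 573 to 1765 FPKM in all libraries. Others of the epithelial list were lower: KRT19 at 24.4 to 49.3, CDH1 at 2.51 to 11.1, EPCAM at 2.59 to 8.15 and NAPSA at 0.166 to 0.641. The lung markers NKX2-1, SFTPC and SFTPB were at or near 0, as were PTPRC and CD3E of leukocytes, PECAM1, VWF and CDH5 of endothelium and DCN and PDGFRB of fibroblasts. CD68 of the leukocyte list stood at 3.81 to 7.24 FPKM and COL1A1 of the fibroblast list at 3.73 to 11.49. The width of the deposited bounds put the relative depth of CSC 2 weeks replicate 2 at 2.69 and that of the other 10 libraries at 1.00 to 1.37.

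After 48 hours of CSC most members were slightly higher, but none singly passed the test. With limma over all tested genes, 0 of 148 had an adjusted p under 0.05, where 0.288% of all tested genes did, and 17 had an unadjusted p under 0.05 (1062 of 12506 over all genes). The fitted difference was above 0 in 121 members and below it in 27. Its median was 0.14 on the log2(FPKM + 0.5) scale, beside 0.01 for the other tested chromosome 19 genes, of which 371 of 720 were above 0, and 0.00 for all tested genes. Without the 7 that passed through CSC libraries only, 115 of 141 were above 0, with a median of 0.14. For ZNF genes of other chromosomes, 149 of 214 were above 0, with a median of 0.09. Other chromosome 19 genes within the members' range of mean FPKM had a median of 0.01.

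**Figure D1:**
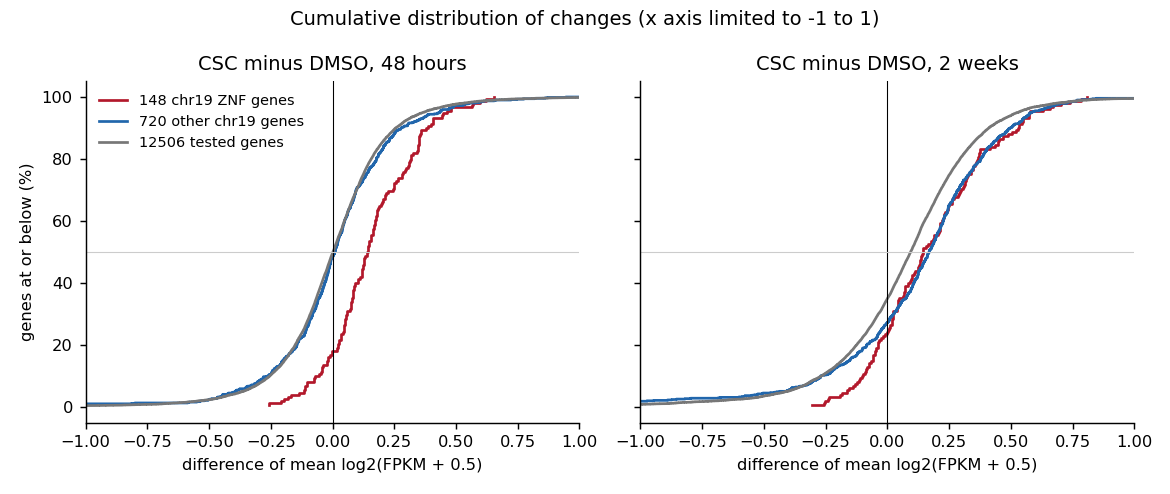
Cumulative share of genes (percent) by the difference of mean log2(FPKM + 0.5), CSC minus DMSO, at 48 hours (left) and 2 weeks (right), for the 148 members, the 720 other tested chromosome 19 genes and all 12506 tested genes. At 48 hours the members' curve lies to the right of the others with a median of 0.14, and at 2 weeks it runs close to that of the other chromosome 19 genes.

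All 3 CSC libraries lay above both DMSO libraries in 32 members at 48 hours and below both in 1, where 10.6% of the other chromosome 19 genes lay wholly above and 8.61% wholly below. Over all 12506 tested genes, 1381 lay wholly above and 1472 wholly below. ZNF155, a KRAB gene, had the smallest p among the higher members. It stood at 0.921 and 0.876 FPKM in DMSO and at 1.43, 1.61 and 1.68 in CSC. Its groups did not overlap, and the difference was 0.57 ± 0.16 (log2, SE; limma adjusted p = 0.219). ZNF586, also with a KRAB box, stood at 2.26 and 2.67 in DMSO and at 4.11, 3.19 and 5.41 in CSC (0.65 ± 0.19, limma adjusted p = 0.222). Its exons overlap those of ZNF587B. ZNF529, described further with the 2-week values, gave 0.62 ± 0.20 (limma adjusted p = 0.311). The lower members with the smallest p were ZNF57 (-0.26, limma adjusted p = 0.765), ZNF225 (-0.21, 0.857) and ZNF565 (-0.26, 0.876), and none of these passed the test.

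One library, CSC 48 hours replicate 3, held much of the 48-hour difference. For each gene the log2(FPKM + 0.5) in a library was set against the gene's mean over the 11 libraries. The median of this over the members was -0.14 and -0.06 in the DMSO 48-hour libraries, -0.05 and -0.04 in CSC replicates 1 and 2, and 0.25 in CSC replicate 3. At 2 weeks it was -0.05, -0.06 and -0.10 in DMSO and 0.07, 0.04 and 0.17 in CSC. In CSC 48 hours replicate 3 the other chromosome 19 genes stood at -0.12, all tested genes at -0.06, and ZNF genes of other chromosomes at 0.13. So the high value was shared, at a smaller size, by ZNF genes elsewhere in the genome and not by the neighbours on chromosome 19.

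**Figure D2:**
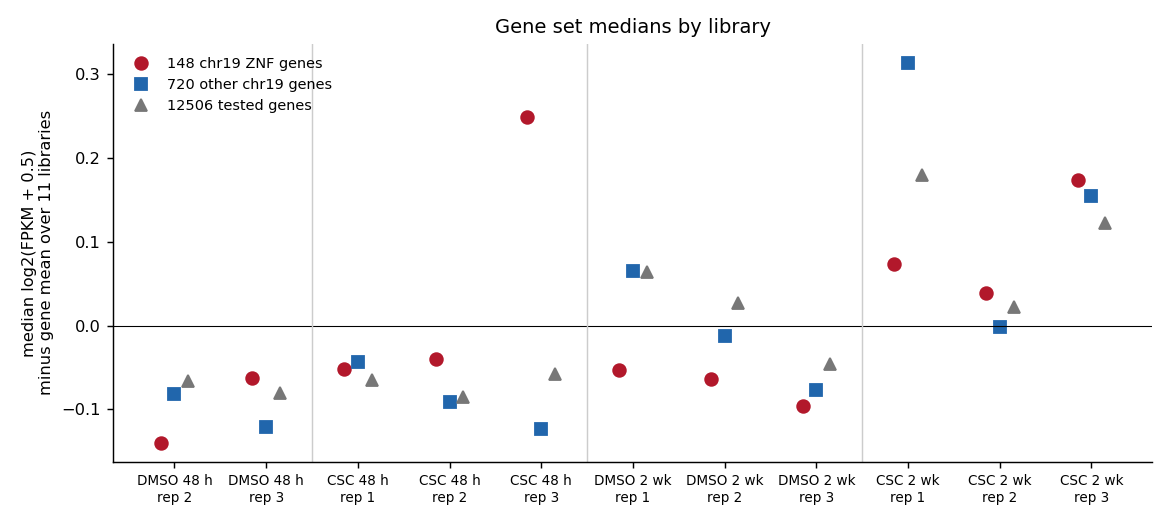
Median over each gene set of log2(FPKM + 0.5) minus the gene's mean over the 11 libraries, by library, for the 148 members (circles), the 720 other chromosome 19 genes (squares) and all 12506 tested genes (triangles). The members are highest in CSC 48 hours replicate 3, at 0.25, where the other chromosome 19 genes are at -0.12.

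CSC 48 hours replicate 3 also held the highest FPKM of 66 of the 148 members (44.6%), but of 9.58% of the other chromosome 19 genes, 35.05% of the ZNF genes of other chromosomes and 12.8% of all tested genes. The other chromosome 19 genes peaked mostly in CSC 2 weeks replicate 1 (52.9%), where 14.2% of members did. So did 36.4% of all tested genes and 19.6% of the ZNF genes of other chromosomes. That library also had the largest summed FPKM, 484050, against 338510 to 413720 in the other 10. Without CSC 48 hours replicate 3, the members' median difference at 48 hours was 0.08 and 96 of 146 were above 0. The nuclear RNAs MALAT1 and NEAT1 were also highest in this library, at 890.9 and 168 FPKM, against 377 to 765 and 61.1 to 129 in the other 10. The other 3 genes of the nuclear RNA list were not highest there. KCNQ1OT1 stood at 3.43 (1.91 to 3.71 over the 11 libraries), RMRP at 60140 (43383 to 63449) and RPPH1 at 23877 (16212 to 37833). The part of such RNAs in the members' values was not tested.

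**Figure D3:**
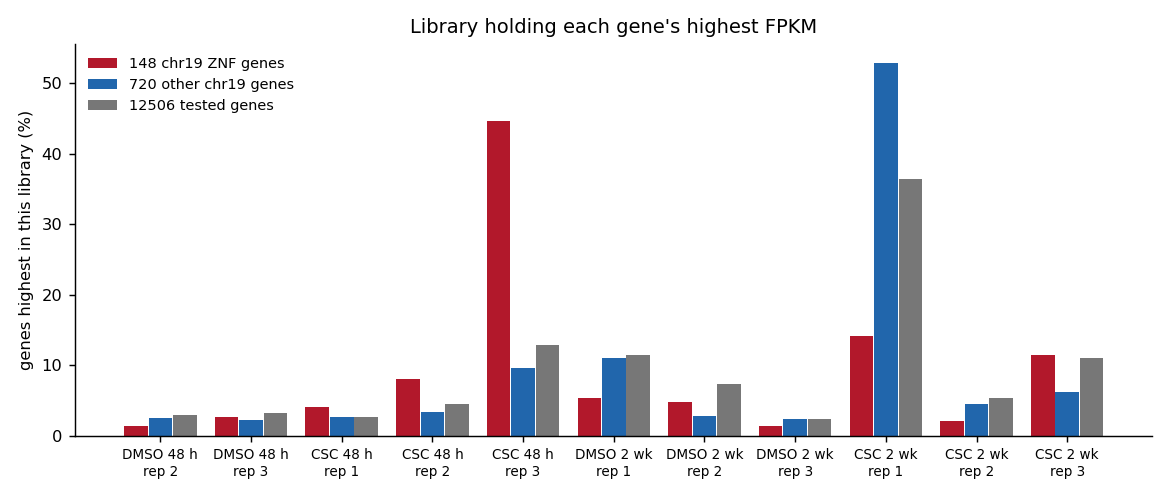
Percent of genes whose highest FPKM over the 11 libraries fell in each library, for the 148 members, the 720 other chromosome 19 genes and all 12506 tested genes. The members' tallest bar is CSC 48 hours replicate 3 (44.6%). In CSC 2 weeks replicate 1 lie the tallest bars of the other chromosome 19 genes (52.9%) and of all tested genes (36.4%).

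After 2 weeks of CSC, limma called 8 members higher and 0 lower. These were ZNF544, ZNF529, ZNF581, ZNF426, ZNF428, ZNF260, ZNF114 and ZNF614. By limma 3.01% of all tested genes were called higher and 2.40% lower, and 3.61% and 1.39% of the other chromosome 19 genes. Of the 214 ZNF genes of other chromosomes, 1.40% were called higher and 0.935% lower, and their median was 0.09. Among other chromosome 19 genes within the members' range of mean FPKM, 2.07% were called higher and 1.28% lower. The members' 8 of 148 (5.41%) is thus above these shares called higher. It equals the 5.41% of all tested genes called in either direction. The difference was above 0 in 113 members with a median of 0.14, beside 0.17 for the other chromosome 19 genes (523 of 720 above 0) and 0.09 for all tested genes. Without the 7 that passed through CSC libraries only, 106 of 141 were above 0, with a median of 0.14. All 3 CSC libraries lay above all 3 DMSO libraries in 48 members and below them in 2, where 23.2% and 9.44% of the other chromosome 19 genes and 20.3% and 9.84% of all tested genes did so.

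Promoter sequences of called members are shown for the motif GCGTG, the core that the aryl hydrocarbon receptor binds and that smoke constituents bring it to. Each run holds the 250 bases before the gene start, from RefSeq (GRCh38.p14), 5′ to 3′ on the gene's strand, with GCGTG on either strand in capitals (CACGC on the other strand). The first 3 are the members that stayed called under every scaling tried, and ZNF260 is an example without a match.
ZNF544, chr19:58228664-58228913, plus strand: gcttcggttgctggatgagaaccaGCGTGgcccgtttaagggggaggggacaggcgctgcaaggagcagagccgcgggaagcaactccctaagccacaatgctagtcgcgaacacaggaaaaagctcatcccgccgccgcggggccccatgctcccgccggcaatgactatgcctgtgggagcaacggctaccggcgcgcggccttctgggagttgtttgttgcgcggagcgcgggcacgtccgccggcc
ZNF581, chr19:55643399-55643648, plus strand: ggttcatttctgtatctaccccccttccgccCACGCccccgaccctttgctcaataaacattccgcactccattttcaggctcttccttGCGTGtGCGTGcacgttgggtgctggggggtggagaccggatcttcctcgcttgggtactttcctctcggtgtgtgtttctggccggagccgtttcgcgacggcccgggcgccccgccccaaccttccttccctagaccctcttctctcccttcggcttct
ZNF428, chr19:43619630-43619879, minus strand: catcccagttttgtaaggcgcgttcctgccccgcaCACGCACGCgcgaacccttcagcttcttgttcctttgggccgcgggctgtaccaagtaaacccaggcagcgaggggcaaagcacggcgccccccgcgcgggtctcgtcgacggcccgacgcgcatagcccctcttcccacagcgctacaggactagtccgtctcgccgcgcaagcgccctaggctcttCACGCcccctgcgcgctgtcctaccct
ZNF260, chr19:36528272-36528521, minus strand: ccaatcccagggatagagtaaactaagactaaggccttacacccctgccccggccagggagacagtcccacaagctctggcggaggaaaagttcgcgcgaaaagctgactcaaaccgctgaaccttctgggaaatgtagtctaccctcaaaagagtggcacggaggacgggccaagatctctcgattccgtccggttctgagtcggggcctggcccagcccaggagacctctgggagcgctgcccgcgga
The motif was in 5 of the 7 called members with a promoter in the table, in 62 of 133 members (46.6%), in 50.1% of 541 other tested chromosome 19 genes and in 31.9% of all 27305 promoters. That last set is not limited to tested genes. The motif holds a CG pair, a C followed by a G. The median number of CG pairs was 17 in members, 21 in the other chromosome 19 genes and 11 in all promoters. Their part in these shares was not tested. ZNF581 and ZNF428 held 3 copies each, which overlap in part in ZNF428. On hg19 the gene ZNF580 ends at 56154836, shortly before the deposited ZNF581 locus starts at 56154986 on the same strand. The ZNF581 run may therefore hold part of ZNF580, and GENCODE places the ZNF581 start at 56146825. A match describes the letters only.

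ZNF544, a KRAB gene of the large cluster near the chromosome end (chr19:58740070-58775008 on hg19, plus strand), had the smallest adjusted p. Its FPKM was 3.48, 3.04 and 2.48 in DMSO and 5.42, 4.97 and 6.17 in CSC at 2 weeks, and the groups lay apart. The rise was 0.79 ± 0.13 (log2, SE; limma adjusted p = 0.00569). At 48 hours it stood at 4.15 and 3.43 in DMSO and at 5.21, 4.59 and 5.42 in CSC (0.38 ± 0.15, limma adjusted p = 0.484), so all 6 CSC libraries lay above all 5 DMSO libraries. It stayed called under every setting run that included it and with any 1 library left out. It lies outside the subset with few shared windows, since 9.55% of its windows were shared.

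ZNF581 (chr19:56154986-56156989, plus strand), with 4 fingers and no KRAB box found, read 8.63, 9.25 and 7.79 in DMSO and 15.6, 11.5 and 16.1 in CSC at 2 weeks, again without overlap (0.71 ± 0.13, limma adjusted p = 0.00890). At 48 hours it read 9.29 and 9.90 in DMSO and 11.98, 11.8 and 13.3 in CSC, which did not pass the test. Its exons overlap those of ZNF580 and CCDC106, and 16.1% of its windows also occurred in another gene, with ZNF580 sharing the most. ZNF580 itself read 20.4, 18.8 and 17.1 in DMSO and 36.0, 21.1 and 29.4 in CSC at 2 weeks (0.58 ± 0.17, limma adjusted p = 0.0708). Reads of these neighbours were not separable here.

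ZNF428 (chr19:44111376-44124014, minus strand), for which 1 finger was found and no KRAB box, stood at 7.64, 7.62 and 6.96 in DMSO and at 14.4, 9.89 and 11.3 in CSC at 2 weeks. Every CSC library was above every DMSO library (0.63 ± 0.12, limma adjusted p = 0.0125). At 48 hours it stood at 6.67 and 5.97 in DMSO and at 8.24, 8.13 and 8.34 in CSC. Its exons overlap SRRM5.

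ZNF529 (chr19:37034517-37096178, minus strand), a KRAB gene with 9 fingers, read 1.20, 1.27 and 1.18 in DMSO and 2.35, 2.20 and 2.56 in CSC at 2 weeks (0.74 ± 0.18, limma adjusted p = 0.0336). At 48 hours it read 1.10 and 1.25 in DMSO and 1.62, 1.79 and 3.03 in CSC, the last in the library that stood apart. All 6 CSC libraries were above all 5 DMSO libraries. Its exons overlap those of ZNF382, which was listed at no more than 0.0702.

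ZNF260 is described in heart muscle as a transcription factor, and no KRAB box was found in it. At 2 weeks it read 6.20, 6.46 and 5.33 in DMSO and 8.46, 9.01 and 9.98 in CSC (0.57 ± 0.14, limma adjusted p = 0.0356). ZNF614, a KRAB gene, read 2.04, 2.47 and 2.07 in DMSO and 3.32, 3.44 and 3.16 in CSC (0.50 ± 0.13, limma adjusted p = 0.0393). ZNF426, a KRAB gene with 12 fingers, read 0.517, 0.745 and 0.759 in DMSO and 1.58, 1.31 and 1.21 in CSC (0.67 ± 0.18, limma adjusted p = 0.0464). None of these overlapped between groups. ZNF114, with a KRAB box and 3 fingers, read 1.85, 1.39 and 1.71 in DMSO and 2.39, 2.63 and 2.78 in CSC (0.53 ± 0.14, limma adjusted p = 0.0464), also without overlap. At 48 hours ZNF114 read 1.99 and 1.92 in DMSO and 1.88, 2.33 and 2.60 in CSC, and the groups overlapped. ZNF260 then read 6.17 and 6.64 in DMSO and 6.95, 7.14 and 10.2 in CSC, without overlap. With a library left out, the 48-hour change was 0.0044 to 0.21 in ZNF426 and 0.099 to 0.27 in ZNF614.

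**Figure D4:**
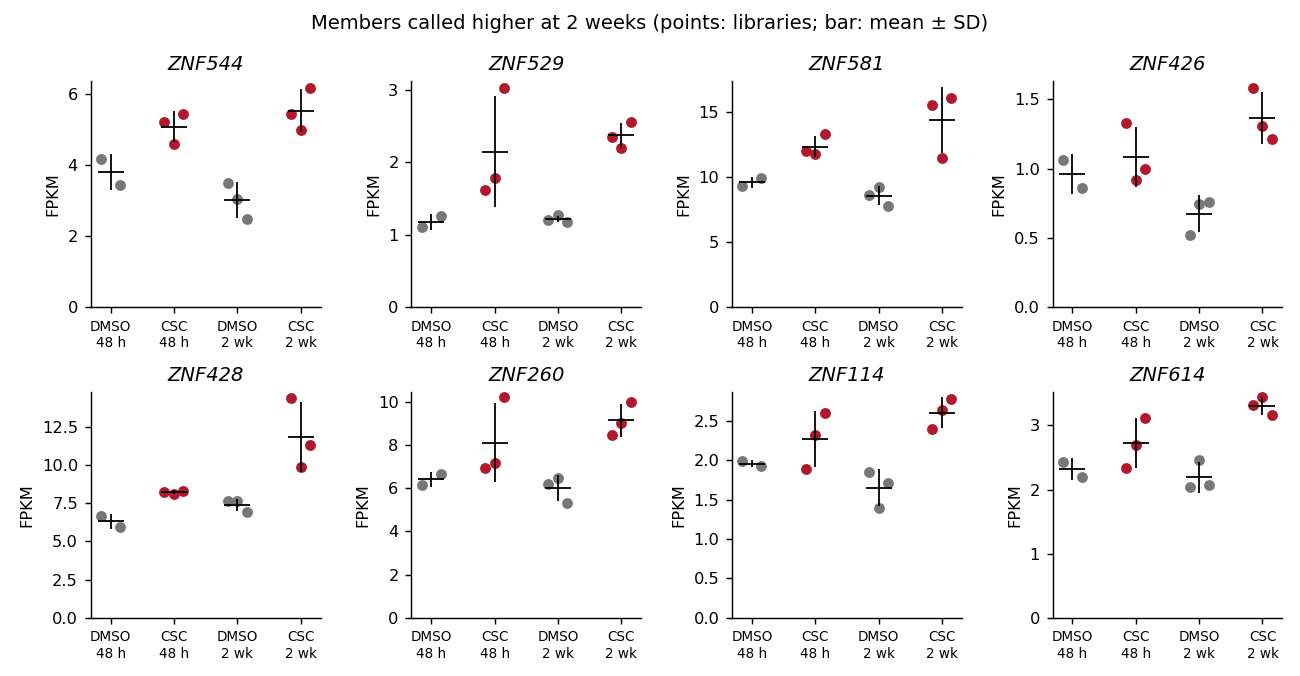
FPKM of the 8 members called higher after 2 weeks of CSC, in each of the 11 libraries (points; grey DMSO, red CSC), with the group mean and SD. At 2 weeks the 3 CSC points lie above the 3 DMSO points in every panel.

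The count of 8 depended on single libraries and on scaling. It was 1 without DMSO 2 weeks replicate 3 and 2 without CSC 2 weeks replicate 3. It was 3 without DMSO 2 weeks replicate 1, DMSO 2 weeks replicate 2 or CSC 2 weeks replicate 1, 5 without either DMSO 48-hour library, and 12 without CSC 48 hours replicate 3. Under 4 other scalings of the libraries it was 3 or 4, and 76 to 96 of the 148 members were then above 0 in place of 113. The members' median was then 0.016 to 0.094, beside 0.017 to 0.088 for the other chromosome 19 genes. For all tested genes it was -0.053 to 0.022, below that of the members each time. ZNF544, ZNF581 and ZNF428 stayed called under these scalings.

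Members with the smallest p on the low side at 2 weeks did not pass the test. ZNF254 read 5.26, 5.07 and 5.37 in DMSO and 3.55, 4.93 and 4.70 in CSC, its CSC libraries all being lower (-0.24 ± 0.14, limma adjusted p = 0.313). ZNF324 gave -0.25 (limma adjusted p = 0.327) and ZNF480 gave -0.16 (limma adjusted p = 0.401). The largest difference on the log2 scale was in ZNF724P, with 1.33, 2.15 and 0.773 in DMSO and 2.93, 3.37 and 2.00 in CSC. These groups overlapped and the test was not passed (0.81 ± 0.27, limma adjusted p = 0.0922).

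Some members have a described role and were listed whatever their values. ZNF274, which brings SETDB1 to the 3′ ends of zinc finger genes, stood at 4.01, 4.26 and 3.56 in DMSO and at 5.34, 4.89 and 5.23 in CSC at 2 weeks. Its groups lay apart but it missed the threshold (0.35 ± 0.10, limma adjusted p = 0.0708). ZNF350, a repressor that binds BRCA1, gave 0.30 ± 0.21 (limma adjusted p = 0.407). ZNF420, a regulator of p53, gave 0.45 ± 0.18 (limma adjusted p = 0.150), and ZNF45 gave 0.21 ± 0.14 (limma adjusted p = 0.380). ZNF331, an imprinted gene, gave -0.14 ± 0.16 (limma adjusted p = 0.604), and ZNF224, a partner of WT1, gave -0.03 ± 0.26 (limma adjusted p = 0.962). ZNF146 gave 0.21 ± 0.11 (limma adjusted p = 0.270).

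The difference between the CSC effects at 2 weeks and at 48 hours was called in 0 of 148 members by limma, where 0.0400% of all tested genes were called, and 1 member had an unadjusted p under 0.05. It was above 0 in 74 members and below 0 in 74, with a median of 0.00, beside 0.15 for the other chromosome 19 genes and 0.09 for all tested genes. Under the 4 other scalings the members' median was -0.15 to -0.029, and that of all tested genes -0.082 to 0.0088. The largest values with small p were those of ZNF426 (0.56 ± 0.26, limma adjusted p = 0.702) and ZNF416 (-0.55 ± 0.22, limma adjusted p = 0.692). The members called at 2 weeks are therefore not shown to differ in response from 48 hours. Across members the changes at both times, which come from different libraries, had a Pearson r of 0.35 and a Spearman rho of 0.34 over 148 genes, which are not independent replicates. Both changes were above 0 in 96 members and both below 0 in 10. In 25 only the 48-hour change was above 0, and in 17 only the 2-week change. Over the 720 other chromosome 19 genes r was 0.42 and rho 0.29. Both changes were above 0 in 300 of these genes and both below 0 in 125. Only the 48-hour change was above 0 in 71, and only the 2-week change in 223.

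Few members were called for time in culture. In DMSO, 2 weeks against 48 hours, limma called 0 of 148, where 0.768% of all tested genes were called, and 6 had an unadjusted p under 0.05. All 2-week DMSO libraries lay above both 48-hour ones in 24 members (16.2%) and below both in 14 (9.46%). The shares were 28.6% and 7.36% for the other chromosome 19 genes, and 28.8% and 7.88% for all tested genes. The members' median was 0.07, beside 0.09 for the other chromosome 19 genes and for all tested genes. With the 4 other scalings the members' median was -0.033 to -0.011, and that of all tested genes -0.021 to 0.0032. ZNF226, a KRAB gene, came nearest, with 4.35 and 4.94 FPKM at 48 hours and 7.996, 8.07 and 7.87 at 2 weeks (0.72 ± 0.19, limma adjusted p = 0.117). Its groups lay far apart, and it was called when only the DMSO libraries entered the fit.

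In CSC, 2 weeks against 48 hours, limma called 1 member, which was higher. Of all tested genes 13.7% were called, 12.3% as higher, and of the other chromosome 19 genes 17.5%, 16.5% as higher. The member was ZNF428, with 8.24, 8.13 and 8.34 FPKM at 48 hours and 14.4, 9.89 and 11.3 at 2 weeks (0.49 ± 0.12, limma adjusted p = 0.0305). This call was lost under the 4 other scalings, where the rise was 0.19 to 0.32. The members' median was 0.05, beside 0.25 for the other chromosome 19 genes and 0.19 for all tested genes. All 2-week libraries lay above all 48-hour libraries in 8 members and below in 2, where 27.5% and 3.61% of the other chromosome 19 genes and 28.4% and 4.47% of all tested genes did so. Without CSC 48 hours replicate 3 the median was 0.15 and 6 members were called. Under the other scalings the members' median was -0.20 to -0.05 and that of all tested genes -0.09 to 0.01, so its sign depends on the scaling, while it lay below that of all tested genes each time.

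By protein class, a KRAB box was found in 118 members and not found in 28, while ZNF724P and ZNF542 had no matched transcript. KRAB members had a median of 13 fingers and a median mean FPKM of 2.24, against 8 fingers and 6.34 FPKM in the others. At 48 hours the median change was 0.13 in KRAB members and 0.14 in the others, and at 2 weeks 0.13 and 0.24. Of the 8 called members, 5 carried a KRAB box and 3 did not. The classes parted most in CSC 2 weeks replicate 1, where the median against the gene means was 0.03 in KRAB members and 0.40 in the others, while in CSC 48 hours replicate 3 both were high, at 0.27 and 0.20. Members with at most 12 fingers, the median number, were above 0 at 48 hours in 72 of 78, and those with more in 47 of 68. At 2 weeks these counts were 63 of 78 and 48 of 68, and 7 of the 8 called members had at most 12 fingers. These are counts without a test, and the same libraries underlie both classes.

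By position, the ZNF loci of chromosome 19 formed 16 clusters when neighbours over 1 Mb apart were split, and 15 held a member. The largest, at chr19:55987699-58992597 on hg19, held 50 members, among them ZNF544 and ZNF581. In it 43 of 50 were above 0 at 48 hours (median 0.17) and 42 of 50 at 2 weeks (median 0.22). The cluster at chr19:36673187-38270230, with ZNF529 and ZNF260, held 16 members, of which 14 and 15 were above 0 (medians 0.25 and 0.22). The cluster at chr19:44037340-45579688, with ZNF428, held 22, of which 19 were above 0 at 48 hours and 12 at 2 weeks (medians 0.13 and 0.03). The cluster at chr19:52074531-54083523, with ZNF614, held 15, of which 12 were above 0 at each time (medians 0.13 and 0.23). That at chr19:7069471-9785776, with ZNF426, held 12, of which 8 and 10 were above 0 (medians 0.14 and 0.18). The cluster at chr19:19779663-24312654 held 9, of which 7 were above 0 at 48 hours and 4 at 2 weeks (medians 0.08 and -0.05). That at chr19:11594242-12740676 also held 9, of which 7 and 6 were above 0 (medians 0.09 and 0.07). The 8 called members lay in 6 clusters, and no cluster held more than 2 of them.

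**Figure D5:**
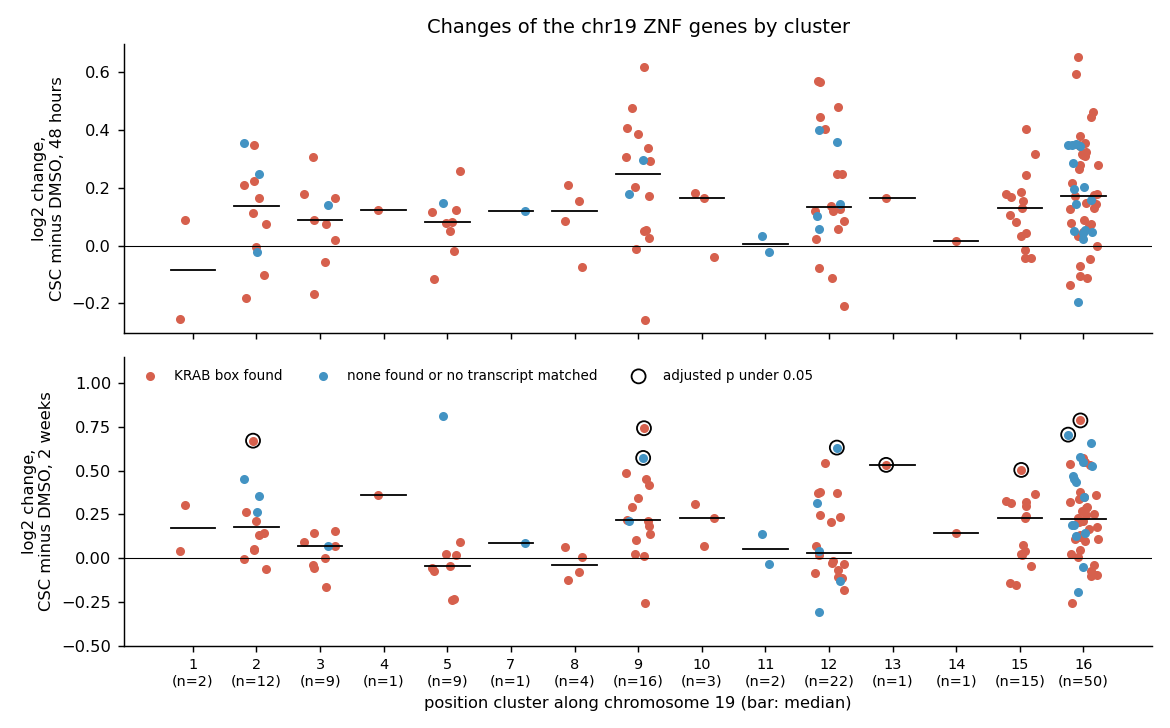
Change of each member (CSC minus DMSO, log2(FPKM + 0.5)) at 48 hours (top) and 2 weeks (bottom), by cluster in order along chromosome 19, with the cluster median as a bar, colour by KRAB box and a ring around members with a limma adjusted p under 0.05. Cluster 16, with 50 members, has medians of 0.17 and 0.22, and the 8 ringed members are spread over 6 clusters.

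Members that share sequence with other genes moved by similar amounts at 48 hours. The 37 members with over 10% of windows shared had medians of 0.15 at 48 hours and 0.09 at 2 weeks, and the 109 with less had 0.12 and 0.21. Of 75 members with under 5% of windows shared and no exon overlap, a set chosen after the data were seen, 3 were called at 2 weeks. These were ZNF260, ZNF614 and ZNF114.

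Among 24 genes of the KRAB cofactor and histone H3 lysine 9 methylation machinery, all 24 were tested. At 48 hours limma called 0 of 24, 1 had an unadjusted p under 0.05, and 3 were above 0, with a median of -0.06. TRIM28, the cofactor that KRAB boxes bind, stood at 190 and 160 FPKM in DMSO and at 180, 176 and 140 in CSC (-0.08 ± 0.17, limma adjusted p = 0.958). At 2 weeks it stood at 199.8, 181 and 172 in DMSO and at 250.4, 173 and 199 in CSC (0.16 ± 0.15, limma adjusted p = 0.559), and the groups overlapped. SETDB1, the methyltransferase, gave -0.03 ± 0.18 at 48 hours (limma adjusted p = 0.981) and -0.01 ± 0.16 at 2 weeks (limma adjusted p = 0.971).

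HDAC1, a histone deacetylase, was the 1 gene of this list called at 2 weeks. It rose from 23.7, 23.8 and 23.5 FPKM to 36.3, 28.6 and 32.9 (0.45 ± 0.11, limma adjusted p = 0.0298), and 17 of 24 were above 0, with a median of 0.12, beside 0.09 for all tested genes. The HDAC1 call was lost with a common sum (adjusted p = 0.0512), when centred (0.0560), and without any 1 of 5 of the 6 libraries compared (0.0930 to 0.112). From 48 hours to 2 weeks in CSC, 4 of 24 were called higher, near the 12.3% of all tested genes and 16.5% of other chromosome 19 genes. These were CHD3, a chromatin remodeller (0.51 ± 0.09, limma adjusted p = 0.0149), HDAC1 (0.53 ± 0.11, 0.0168), CBX5, an HP1 protein (0.48 ± 0.11, 0.0216), and PPHLN1, a subunit of the HUSH silencing complex (0.45 ± 0.11, 0.0281). All 4 calls were lost with a common sum (adjusted p = 0.127 to 0.348), with quantile normalization (0.109 to 0.302) and when centred (0.0680 to 0.171). With 1 library left out, the call was lost for HDAC1 in 2 cases, CBX5 in 3 and PPHLN1 in 4, always CSC libraries. The list's median was 0.25 in that comparison, like the 0.25 of the other chromosome 19 genes and above the 0.19 of all tested genes and the members' 0.05.

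Of 20 other chromosome 19 genes listed by zinc finger symbols such as ZFP and ZSCAN, 12 were tested. In both CSC comparisons limma called 0 of 12. At 48 hours 10 were above 0 (median 0.10) and at 2 weeks 8 (median 0.05). ZFP36, which holds another type of finger and promotes mRNA decay, rose with time in DMSO, from 11.9 and 15.9 FPKM to 22.6, 23.3 and 22.4 (0.71 ± 0.14, limma adjusted p = 0.0426). That call was lost under each of the 4 other scalings (adjusted p = 0.101 to 0.149), and without any 1 of 8 of the 11 libraries (0.0509 to 0.332). Without DMSO replicate 2 of 48 hours the ZFP36 change was 0.50.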

How the data were processed

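Total RNA of 11 A549 samples was depleted of ribosomal RNA with Ribo-Zero Gold, sequenced on a HiSeq2000 and aligned to hg19 with TopHat2 version 2.0.9 through BaseSpace, per the labels' protocols. CASAVA version 1.7.1a5 is listed too, per the submitters' processing notes. For the quantifier, annotation, strand setting and library scaling, no tool or setting is given in the sources used here. The authors deposited FPKM per gene and locus with lower and upper bounds, in 25275 lines per library. Depth in reads is therefore unknown, and relative depth came from the width of the bounds over 11051 lines. The median half-width of the members' bounds was 16.6% to 28.7% of the value by library.

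Libraries were placed in groups by their titles. Loci of a symbol were summed, and 1 symbol with a failed estimate was left out. Genes that reached an FPKM of 1 in 2 or more libraries were fitted on log2(FPKM + 0.5) with limma version 3.58.1 in R version 4.3.3 (4 groups in 1 fit, eBayes with trend, no replicate block), over 5 contrasts. Adjusted p is Benjamini-Hochberg over all 12506 tested genes, called under 0.05. Differences on this scale understate changes of weakly expressed genes. The DMSO 48-hour group has 2 libraries and shares the spread of the other groups. The procedure was tested on simulated data.

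KRAB boxes and fingers were found by sequence patterns in the longest reading frames of GENCODE version 44 coding transcripts on GRCh37, in place of the RefSeq proteins that were planned. Linkers were found by a pattern in all forward reading frames of each member's longest coding transcript. Promoters came from RefSeq, matched by symbol for 133 of 148 members. Loci are on hg19 as deposited, with starts written 1-based.

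Genes were named by a rule. It took up to 8 called members per contrast and direction, or the 3 with the smallest p where fewer than 3 were called, the 5 highest levels, 3 on each side of the threshold, and a fixed list of described genes. From the lists of related genes it took up to 4 called genes per contrast, with TRIM28 and SETDB1. ZNF724P at 2 weeks is named for its size, after its values were seen. The members and lists were chosen with earlier results of these data known. Alternatives were other pseudocounts (0.1 and 1), no filter or one at an FPKM of 5, 4 other scalings, other eBayes settings, library weights, a replicate block, a fit restricted to the compared libraries, stricter calls, subsets of members and each library left out in turn.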

Additional observations from a re-analysis of the deposited data

How the results depend on the processing

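At 48 hours 0 members were called under every setting run, and the members' median stayed between 0.08 and 0.19 with each library left out. The replicate numbers were not taken to pair the libraries, since the labels do not say that they do. Deviations from the group means correlated at 0.19 to 0.31 in the 3 pairs numbered 1, and at -0.20 to 0.22 in those numbered 2 and 3. The deviations of the 2 DMSO 48-hour libraries mirror each other by construction, so these values cannot settle the pairing. With the replicate block 9 members were called at 2 weeks, 7 of them among the 8, and 3 in CSC over time. At 2 weeks the count of 8 became 3 unfiltered, 4 with an FPKM minimum of 5, 3 under median-of-ratios scaling, 3 with a common sum, 4 with quantile normalization and 3 when centred on the other chromosome 19 genes. It became 14 when the fit was restricted to the compared libraries, 2 at an adjusted p under 0.01, 5 with a minimum of 1.5-fold, and 3 among members with few shared windows and no exon overlap. It became 63 with library weights, whose estimation stopped before it converged, where 30.2% of all tested genes were called higher. Left-out libraries gave 1 to 12. The median of 0.14 at 2 weeks fell to 0.033 with a common sum and 0.016 when centred. That of all tested genes fell with it, from 0.095 to -0.034 and -0.053.

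For 2 weeks against 48 hours in CSC, the 1 call became 0 unfiltered, under the 4 scalings, with the restricted fit, under both stricter calls and in the subset with few shared windows, 2 in eBayes without the trend and 48 with weights, and left-out libraries gave 0 to 6. Its median was -0.11, -0.20, -0.051 and -0.14 under the 4 scalings in the order above, and -0.0038 to 0.15 with a library left out. In DMSO over time 1 member was called with weights and 1 with the restricted fit, left-out libraries gave 0 to 1, and the median was -0.033 with a common sum. The median difference of the effects was -0.15 with a common sum. The cause of these shifts was not tested.

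Sign changes were in values that did not pass the test. At 48 hours left-out libraries gave -0.46 to 0.045 for ZNF225, -0.62 to 0.10 for ZNF565, -0.21 to 0.038 for TRIM28 and -0.36 to 0.30 for SETDB1. TRIM28 was 0.012 with weights and SETDB1 0.0086 with a common sum. At 2 weeks left-out libraries gave -0.18 to 0.053 for ZNF224, -0.038 to 0.10 for ZNF57, -0.0033 to 0.39 for ZNF579 and -0.033 to 0.029 for SETDB1. ZNF57 was -0.030, -0.057 and -0.071 under median-of-ratios, common-sum and centred scaling, and -0.051 with weights. ZNF331 was 0.075 with weights, TRIM28 -0.022 with quantile normalization and -0.0077 when centred, and SETDB1 0.010 with weights. Over time in CSC, ZNF331 was 0.00097 with weights. Depth in reads is unknown, so no floor can be given for values near 0.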
